A study of Homo sapiens with 20 samples.

Results

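The clustered protocadherins are a family of neighbouring genes on the long arm of chromosome 5 that encode single-pass cell-adhesion proteins of the cadherin superfamily. The members were taken from RefSeq GRCh38 as the protein-coding genes of this stretch whose symbol starts with PCDHA, PCDHB or PCDHG, and they reach from PCDHA1 to the end of PCDHGC5 (chr5:140786140-141512975). This gave 53 genes, of 15817 protein-coding genes with a start site in the same annotation. They fall into the alpha cluster with 15 genes, the beta cluster with 16 and the gamma cluster with 22, and 5 of them are C-type genes (PCDHAC1, PCDHAC2, PCDHGC3, PCDHGC4 and PCDHGC5). The rule for members used names and positions only, and no measured value, but it was set with earlier results of these data known.

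The study mapped chromatin by ChIP-seq in HCT116, a line long in culture from a human colorectal carcinoma, in wild-type (WT) cells and in MLL4-knockout (KO) cells. MLL4, the product of KMT2D, is an enhancer-associated histone H3 lysine 4 methyltransferase, and MLL1 is a related enzyme. H3K4me3, a mark of promoters in use, H3K27ac, a mark of active promoters and enhancers, and the transcription factor p53 were each measured in 2 libraries per genotype. H3K4me1, a mark typical of enhancers, MLL1 and MLL4 were measured in 1 library per genotype. Both genotypes grew in DMEM with serum, and no p53-activating treatment is named in the labels. Nor do the labels say whether the KO line is 1 clone or whether replicates were separate cultures, so the spread between libraries may be technical.

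In alpha and gamma genes, each member has its own promoter and a large variable first exon that is spliced to constant exons shared by the whole cluster, whereas beta genes consist of a single exon. Neurons choose a few of the alternate genes for expression, promoter by promoter, while the C-type genes are used more uniformly. CTCF and cohesin bind most of these promoters and connect them with distal enhancers. Known enhancers lie in the alpha constant region, between the alpha and beta clusters, and downstream of the gamma cluster. Hypermethylation of the locus has been described in several tumour types.

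The results below turn on 4 promoters, and their sequences show how unlike they are. Each runs from 250 bases before to 50 bases after the RefSeq start, on the plus strand of GRCh38.p14, read 5′ to 3′. Capitals mark CGCT on either strand (AGCG on the minus strand as read here), the core of a sequence element conserved among many clustered protocadherin promoters. A match of these letters alone does not show that the element is present. PCDHAC1 lies at chr5:140926049-140926348, PCDHAC2 at chr5:140966226-140966525, PCDHB14 at chr5:141223093-141223392 and PCDHGA10 at chr5:141412737-141413036.
PCDHAC1: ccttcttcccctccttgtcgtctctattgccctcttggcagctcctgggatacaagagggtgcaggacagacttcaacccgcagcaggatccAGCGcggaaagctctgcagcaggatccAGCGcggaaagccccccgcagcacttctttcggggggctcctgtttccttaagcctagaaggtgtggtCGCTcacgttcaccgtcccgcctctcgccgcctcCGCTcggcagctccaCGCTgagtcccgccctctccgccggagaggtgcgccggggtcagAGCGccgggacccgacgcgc
PCDHAC2: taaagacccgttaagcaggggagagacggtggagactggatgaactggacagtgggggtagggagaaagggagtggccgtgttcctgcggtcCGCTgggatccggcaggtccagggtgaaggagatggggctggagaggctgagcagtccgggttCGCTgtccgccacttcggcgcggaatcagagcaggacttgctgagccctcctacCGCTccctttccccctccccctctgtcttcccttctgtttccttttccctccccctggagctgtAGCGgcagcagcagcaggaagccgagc
PCDHB14: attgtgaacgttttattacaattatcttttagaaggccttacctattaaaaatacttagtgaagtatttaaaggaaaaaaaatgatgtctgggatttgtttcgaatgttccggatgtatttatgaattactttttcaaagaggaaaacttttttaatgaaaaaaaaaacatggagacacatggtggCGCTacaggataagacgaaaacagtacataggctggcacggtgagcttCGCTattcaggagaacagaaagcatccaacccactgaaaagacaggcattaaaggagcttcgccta
PCDHGA10: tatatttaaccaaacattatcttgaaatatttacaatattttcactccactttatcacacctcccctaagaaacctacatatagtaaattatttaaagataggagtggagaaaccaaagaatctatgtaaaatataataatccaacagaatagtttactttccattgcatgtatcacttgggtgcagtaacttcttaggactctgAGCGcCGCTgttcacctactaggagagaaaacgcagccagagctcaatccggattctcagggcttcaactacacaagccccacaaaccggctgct

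The pair of C-type alpha promoters is GC-rich and the other pair is AT-rich. GC content was 66.0% in PCDHAC1 and 63.0% in PCDHAC2, with 27 and 15 CpG dinucleotides, against 35.7% with 8 CpG in PCDHB14 and 38.3% with 5 CpG in PCDHGA10. Among the 47 members with a RefSeq promoter entry the median GC content was 39.7% with a median of 7 CpG, and over all 15811 promoters of the table it was 62.7% with 22 CpG. The 4 C-type promoters with an entry had a median of 61.8% (range 59.0 to 66.0%) and 20.5 CpG. In base composition the C-type promoters thus lay near the typical promoter of the genome and the alternate members far below it.

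CGCT on either strand was found in 46 of 47 member promoters (97.9%, all but PCDHA9) and in 81.2% of all promoters. A narrower search, which was not planned, took the 100 bases before the start. On the sense strand of this stretch CGCT was found in 44 of 47 (93.6%, all but PCDHA9, PCDHB8 and PCDHGB2) against 35.3% of all promoters. On the antisense strand of the same stretch it was found in 12 of 47 (25.5%) against 35.8%. TATAA, the core of the TATA box, was found on either strand in 17 of 47 (36.2%) against 16.7%, and in 0 of the 4 C-type promoters. Another motif that was searched, a longer one of the CTCF type, went the other way. It was found on either strand in 1 of 47 (2.13%) against 12.9% of all promoters. Matches of different motifs were counted separately, whether or not they overlapped, and no match says only that these letters are not in this window. The promoters of PCDHA3, PCDHA13, PCDHB6, PCDHB11, PCDHGA12 and PCDHGC5 had no entry, and the lower gene coordinate served as their start. The most alike pair of member promoters, PCDHGB4 and PCDHGB5, was identical at 80.1% of aligned bases, followed by PCDHB8 and PCDHB13 at 71.3%.

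Most members carried no H3K4me3 peak in any library. A member counted as called where a deposited peak overlapped the stretch 1 kb to either side of its start by at least 1 bp. Peaks were called by the authors in each library separately against the input of its genotype, and the fold given here is the authors' enrichment of the strongest such peak. H3K4me3 was called at 3 members in WT 1, 3 in WT 2, 2 in KO 1 and 4 in KO 2. In both WT libraries it was called at 3 of 53 members (5.66%), where 61.2% of all promoters were called, and in both KO libraries at 2 (3.77%), against 61.6%. In at least 1 library it was called at 6 (11.3%), against 63.9%. The number of called members did not differ in mean between genotypes (3.0 ± 0.0 for WT against 3.0 ± 1.41 for KO, SD over 2 libraries; exact two-sided permutation p = 1), and the smallest p this design allows is 0.333. PCDHGA10 was the only member called in both genotypes.

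**Figure D1:**
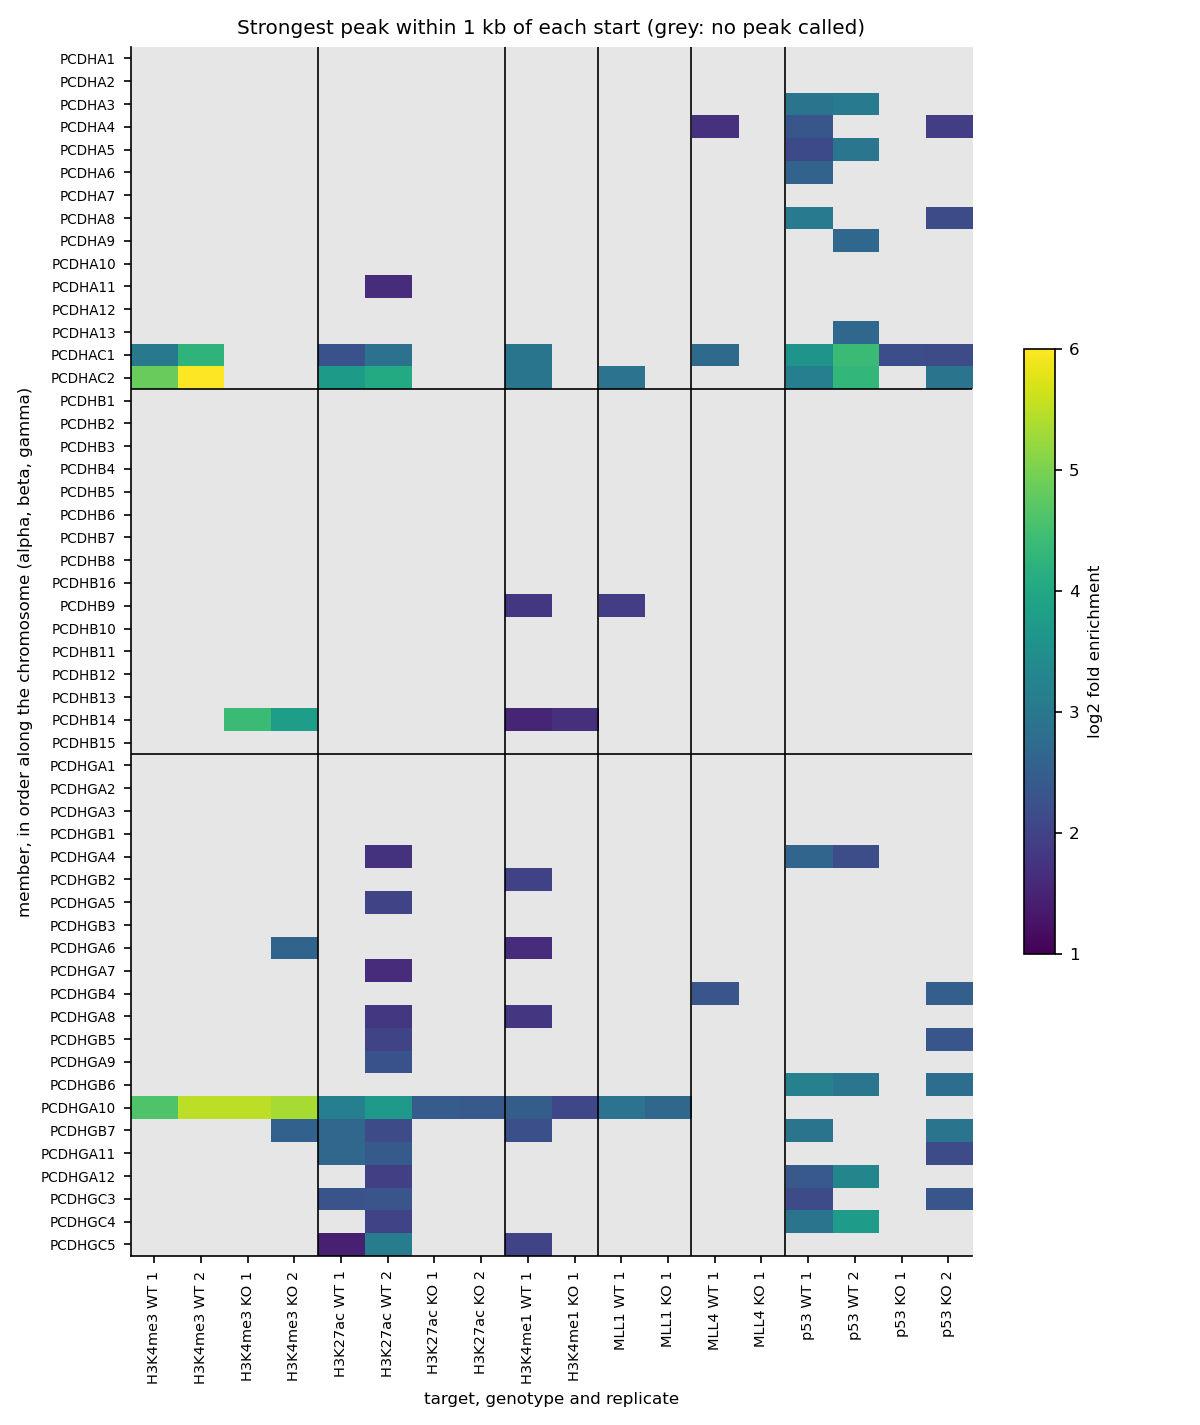
Log2 fold enrichment of the strongest peak within 1 kb of each start, for 53 members (rows, in chromosome order) in 18 libraries (columns, by target, genotype and replicate); grey cells have no called peak and horizontal lines separate the alpha, beta and gamma clusters. The brightest cells are H3K4me3 at PCDHAC2 in WT only and at PCDHGA10 in all 4 libraries. H3K4me3 is also called at PCDHAC1 in WT only and at PCDHB14 in KO only. These cells are in the range of p53 in WT 2 and H3K27ac in WT at the C-type alpha genes. Most of the beta rows are grey throughout.

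At PCDHAC2, the last C-type gene of the alpha cluster (gene chr5:140966476-141012347), the H3K4me3 fold was 28.6 in WT 1 and 65.2 in WT 2, and no peak was called in either KO library. The WT peaks were 1191 and 1391 bp wide, and the wider one spanned chr5:140965735-140967125, centred 46 bp upstream of the start. At PCDHAC1 (gene chr5:140926299-141012347) the fold was 8.07 in WT 1 and 19.2 in WT 2, with peaks of 617 and 954 bp, and again no peak was called in KO. The genotypes did not overlap at either gene, and WT 2 was the higher WT library at both. These were the only 2 of 53 members (3.77%) called in both WT libraries and in no KO library. Over all promoters 0.329% met that rule, and of promoters called in both WT libraries 0.537% did, against 2 of 3 members.

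PCDHB14, a beta gene (chr5:141223343-141227759), showed the opposite pattern. It had no H3K4me3 peak in either WT library, whereas the fold was 21.3 in KO 1 and 13.8 in KO 2. The KO 1 peak spanned chr5:141223251-141224001 (751 bp) and the KO 2 peak was 713 bp wide, with centres 283 and 272 bp after the start. PCDHB14 was the only member (1.89%) called in both KO libraries and neither WT library, against 0.133% of all promoters. It was also the only beta gene with an H3K4me3 peak in any library.

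PCDHGA10, a gamma gene (chr5:141412987-141512975), kept its peak in all 4 libraries. The H3K4me3 fold was 24.6 in WT 1, 45.1 in WT 2, 45.4 in KO 1 and 40.8 in KO 2. KO 2 lay between the WT libraries and KO 1 level with WT 2, so the genotypes overlapped. The 4 peaks were 928 to 1185 bp wide with centres 407 to 526 bp downstream of the start. In KO 2 alone, weaker peaks were called at PCDHGA6 with a fold of 6.11 and a width of 297 bp, and at PCDHGB7 with a fold of 5.87 and a width of 400 bp. These 2 gamma genes had no H3K4me3 peak in KO 1, WT 1 or WT 2.

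**Figure D2:**
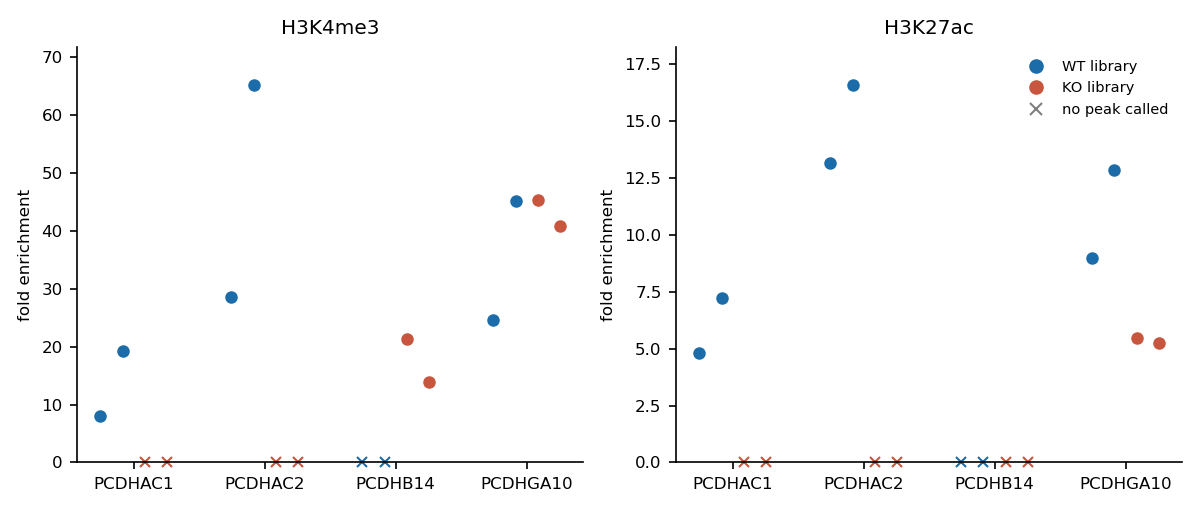
Fold enrichment (linear axes) of the strongest H3K4me3 and H3K27ac peak within 1 kb of the start of 4 members; each point is 1 library, blue for WT and red for KO, and a cross on the axis marks a library with no called peak, not a value of 0. H3K4me3 is seen at PCDHAC1 and PCDHAC2 in WT points only, at PCDHB14 in KO points only, and at PCDHGA10 in all 4 points, where H3K27ac is lower in both KO libraries than in both WT libraries.

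H3K27ac was called at more members in WT than in KO. It was called at 7 members in WT 1 and 16 in WT 2 but at 1 in each KO library (11.5 ± 6.36 against 1.0 ± 0.0, SD over 2 libraries). The difference of -10.5 members gave p = 0.333 in the exact two-sided permutation test, where no lower p is possible. It was -6 without WT 2, and -3 with lists cut to equal length. In both WT libraries 7 of 53 were called (13.2%, against 76.1% of all promoters), and in both KO libraries 1 (1.89%, against 63.3%). The member called in KO was PCDHGA10, whose fold was 8.99 and 12.9 in WT and 5.46 and 5.26 in KO, with no overlap between the genotypes. Its peak was also narrower, at 615 and 1007 bp in WT against 287 and 351 bp in KO. How many of all promoters showed such a separation was not counted, so it is not shown to be particular to PCDHGA10. At the neighbouring genes TAF7, ZMAT2 and DIAPH1 both KO folds of H3K27ac were also below both WT folds.

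Of the members called in both WT libraries, 6 of 7 had no KO peak, where 11.4% of all promoters called in both WT libraries had none. Counted over all 53 members this is 11.3%, against 8.69% of all promoters. They were PCDHAC1, PCDHAC2, PCDHGB7, PCDHGA11, PCDHGC3 and PCDHGC5, so 4 of the 5 C-type genes were among them. The H3K27ac fold was 13.2 in WT 1 and 16.6 in WT 2 at PCDHAC2, and 4.80 and 7.24 at PCDHAC1. At PCDHGB7 it was 6.30 and 4.43. PCDHGA11 had a peak at its start in WT 2 only, with 5.37, since its WT 1 call, with 6.30, is a peak centred at -1424 bp from its start that belongs to the downstream stretch of PCDHGB7 and overlaps the window by 2 bp. At PCDHGC3 it was 4.84 and 5.00. At PCDHGC5 it was 2.71 and 8.55, where the WT 2 peak was 4571 bp wide and the WT 1 peak overlapped the window by 125 bp, centred 1070 bp downstream. With an overlap of 200 bp, or with a window of 500 bp, PCDHGA11 and PCDHGC5 dropped out and the WT-only count was 4. PCDHAC2 stood highest of the 6 in both WT libraries, and the other 5 had folds of 2.71 to 8.55, beside medians of 4.77 and 4.62 over the whole WT lists.

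PCDHGC4 was called for H3K27ac in WT 2 only, with a fold of 4.06. Of the 9 members called in WT 2 alone, 8 were gamma genes, with PCDHA11 the exception. No member was called in KO only, as for 0.0695% of all promoters. The deposited H3K27ac lists were of unequal length, with 139104 and 198757 peaks in WT and 65050 and 61959 in KO. Where each list was reduced to its strongest peaks, as many as the shortest list holds, PCDHAC2 was the only member left of the 6.

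H3K4me1 was called at 10 members in the WT library (18.9%, against 69.8% of all promoters) and at 2 in the KO library (3.77%, against 55.7%). The fold in WT was 7.73 at PCDHAC1 and 7.71 at PCDHAC2, then 5.56 at PCDHGA10, 4.66 at PCDHGB7, 4.09 at PCDHGC5 and 3.91 at PCDHGB2. PCDHB9, PCDHGA8, PCDHGA6 and PCDHB14 followed with 3.49, 3.45, 3.11 and 2.87. In KO the called members were PCDHGA10 with 4.17 and PCDHB14 with 3.20, the same pair that had H3K4me3 peaks in both KO libraries. The other 8 were called in WT only (15.1%, against 17.1% of all promoters). Of promoters called in WT, 24.4% of all and 8 of the 10 members had no KO peak. No member was called in KO only, against 2.98%. With 1 library per genotype this difference has no replicate check, and the KO list was shorter (43636 peaks against 125507).

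MLL4 peaks at member promoters were few and were seen in the WT library only. The fold was 6.67 at PCDHAC1, 5.00 at PCDHGB4 and 3.30 at PCDHA4 (3 of 53, 5.66%, against 35.2% of all promoters). The KO list held 278 peaks in the whole genome, against 56770 in WT, and none lay in the protocadherin span, where WT had 27. MLL1 was called at 3 members in WT (5.66%, against 58.7% of all promoters), at PCDHAC2 and PCDHGA10, with a fold of 7.52 at each, and at PCDHB9 with 3.76. In KO it was called at PCDHGA10 alone (1.89%, against 63.1%), with 6.48. The 2 members with MLL1 in WT only made up 3.77%, against 1.54% of all promoters (2 of 3 called in WT, against 2.63%), and no member was called in KO only, against 5.97%. MLL1 and H3K4me3 thus met at PCDHAC2 in WT and at PCDHGA10 in both genotypes, while PCDHB14 had no MLL1 peak in KO.

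PCDHAC1, PCDHAC2 and PCDHGA10 were the 3 with all 3 histone marks in every WT library, and 33 members had no histone peak in any library. Of these, 24 (5 alpha, 14 beta and 5 gamma genes) had no promoter peak of any of the 6 targets. Only PCDHB9 and PCDHB14 among the beta genes had any promoter peak. PCDHA1, PCDHA2, PCDHA7, PCDHA10 and PCDHA12 were the alpha genes without one.

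p53 was called at the promoters of 13 members in WT 1, 10 in WT 2, 1 in KO 1 and 10 in KO 2. Both WT libraries shared 8 of them (15.1%, against 47.2% of all promoters) and both KO libraries 1 (1.89%, against 54.7%). The KO libraries differed from each other by more than the genotype means did (11.5 ± 2.12 for WT against 5.5 ± 6.36 for KO, SD over 2 libraries; exact two-sided permutation p = 0.667). The highest promoter fold in each WT library was at a C-type alpha gene. At PCDHAC1 the p53 fold was 12.1 in WT 1, 21.1 in WT 2, 4.60 in KO 1 and 4.44 in KO 2. At PCDHAC2 it was 8.97 and 19.7 in WT and 7.62 in KO 2, with no peak in KO 1. Both WT values exceeded every called KO value at these genes. The whole p53 lists also had higher median folds in WT (7.55 and 11.98) than in KO (5.62 and 5.08). The comparison was not made over all promoters, so it is not shown to be particular to these genes. PCDHGB6, a gamma gene, had 9.06, 7.75 and 6.98 in WT 1, WT 2 and KO 2, with no peak in KO 1. Without KO 1 the difference of -6 members was -1.5, and without KO 2 it was -10.5.

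Another 5 members had p53 in both WT libraries and neither KO library (9.43%, against 1.32% of all promoters), which is 5 of the 8 called in both WT libraries, against 2.78%. PCDHGC4 had a fold of 7.55 and 13.4, PCDHA3 7.55 and 8.46, and PCDHGA12 5.29 and 9.86 in WT 1 and WT 2. The PCDHGA12 peaks were centred 934 and 919 bp downstream of the start, at the edge of the window. PCDHA5 had 4.33 and 7.77, and PCDHGA4 6.21 and 4.53. At PCDHGC3 p53 was called in WT 1 with 4.42 and in KO 2 with 5.08, and PCDHGC5 had no p53 peak within 1 kb. No beta promoter was called for p53, and no member was called in KO only (against 8.38% of all promoters).

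The p53 peaks of the locus lay for the most part not at the promoters but about 2 kb downstream of the starts. This was noticed in the peaks themselves, so the window from 1.5 to 2.5 kb downstream of the start, used for the counts that follow, was chosen after the values were seen. In alpha, beta and gamma genes alike this window lies within the annotated gene. p53 was called there at 44 members in WT 1, 43 in WT 2, 14 in KO 1 and 39 in KO 2. In both WT libraries it was called at 43 of 53 members (81.1%), where 5.75% of all genes had a p53 peak in the same window, and in both KO libraries at 13 (24.5%), against 5.62%. The 43 were every non-C-type alpha gene, every beta gene but PCDHB1, and 15 gamma genes.

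**Figure D3:**
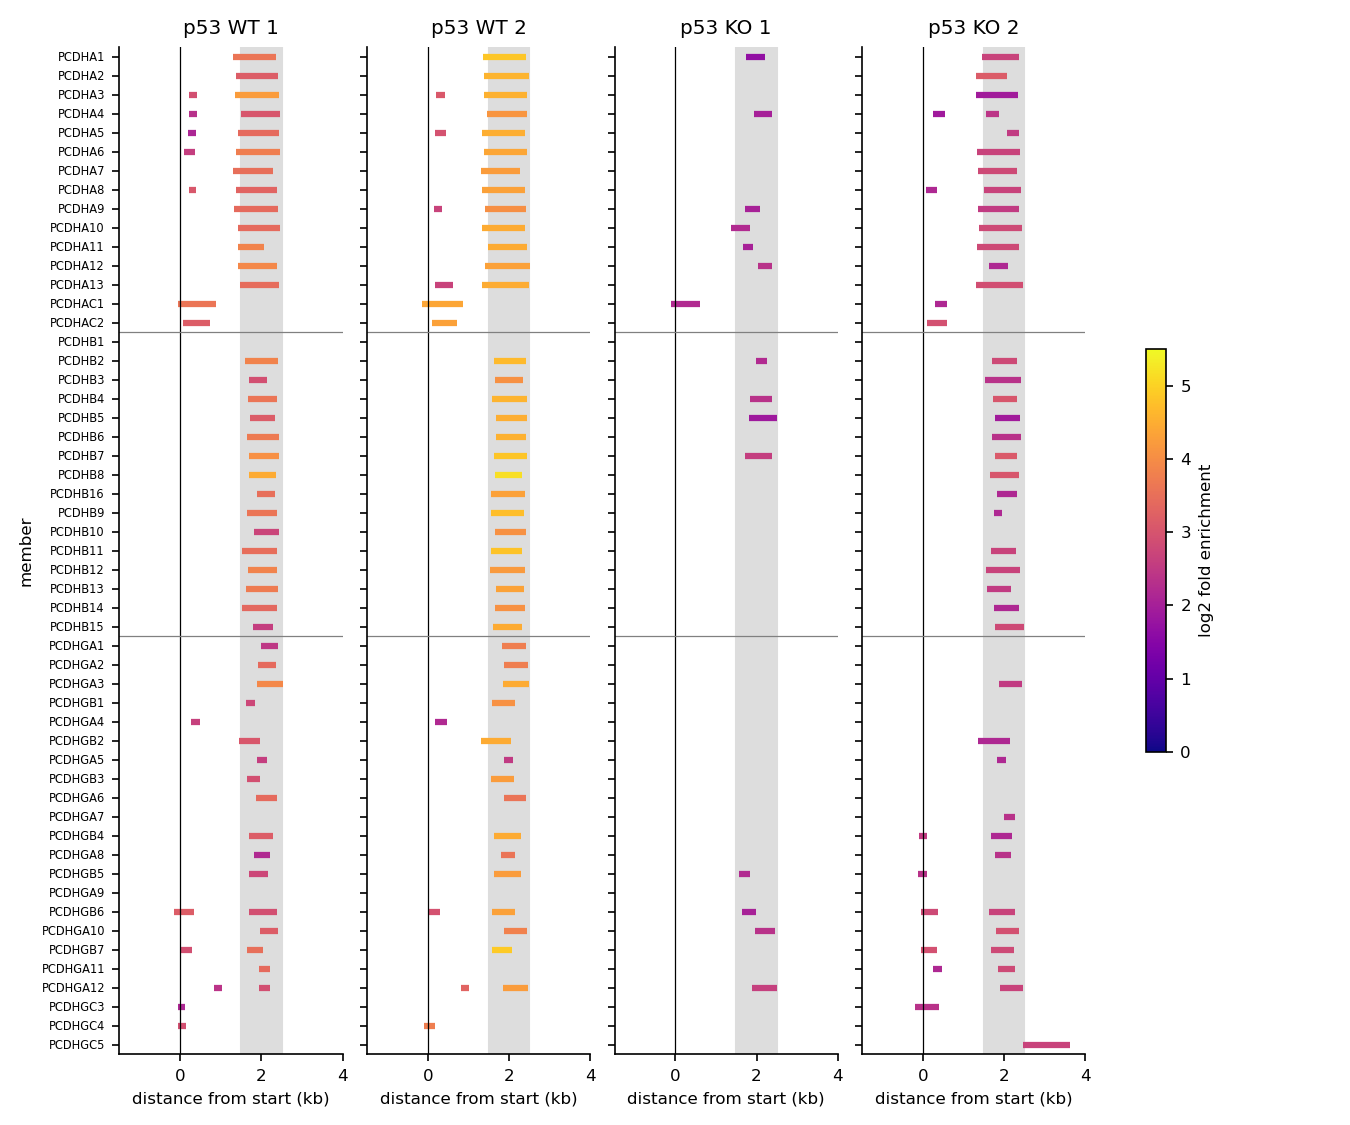
Position of the strongest p53 peak in the downstream window and of the strongest within 1 kb of the start, for each of 53 members (rows) in 4 libraries (panels); the x axis is the distance from the start in kb, bars span each peak, colour gives its log2 fold, and the grey band is the window from 1.5 to 2.5 kb. Within the band, which was chosen from these peaks, they stack at a similar distance in the alpha and beta rows of both WT panels. They are weaker in KO 2 and are missing from most rows of KO 1. PCDHAC1 and PCDHAC2 have theirs at the start instead.

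Only peaks that overlap the chosen window entered here, so centres near its middle follow in part from that choice. In WT 1 the centres ranged from 1740 to 1980 bp after the start in alpha genes. They ranged from 1918 to 2122 bp in beta genes and from 1710 to 2203 bp in gamma genes. In WT 1 and WT 2 the median centre of the peaks was 1893 and 1916 bp after the start in the alpha cluster, 2022 and 2011 bp in the beta cluster and 2025.5 and 1974 bp in the gamma cluster. The median width was 1020 and 1047 bp in alpha genes, 722 and 775 bp in beta genes and 421 and 577 bp in gamma genes. The highest fold was at PCDHB8, with 21.9 in WT 1, 35.9 in WT 2, no peak in KO 1 and 8.25 in KO 2. PCDHA3 followed in WT 1 with 18.9, beside 23.3 in WT 2, no peak in KO 1 and 3.81 in KO 2. At PCDHB7 the fold was 16.6, 28.5, 6.04 and 8.58 in the same order of libraries, and at PCDHA1 12.1, 28.9, 3.20 and 6.35. PCDHGA10, the gamma gene with H3K4me3, did not stand apart, with 9.06, 14.1, 5.11 and 7.62.

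Members without this peak in either WT library were all 5 C-type genes, PCDHB1, PCDHGA4, PCDHGA7 and PCDHGA9. PCDHGA11 was called in WT 1 with a fold of 10.6 but not in WT 2. In KO 2 the window was also called at PCDHGA7, with 5.08, and at PCDHGC5, with 6.35, by the edge of a peak centred 3048 bp after the start.

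The fold at called members had a median of 10.6 in WT 1, 20.0 in WT 2, 4.60 in KO 1 and 6.35 in KO 2, beside medians of 7.55, 11.98, 5.62 and 5.08 over the whole p53 lists. Of 36 members called in both WT libraries and KO 2, the KO 2 fold was below both WT values at 34. Of 14 called in both WT libraries and KO 1, the KO 1 fold was below both at 14. WT 2 exceeded WT 1 at 42 of 43. The libraries of a genotype thus differed as well, and the fold is scaled by each library's own background. The whole-list medians were also lower in both KO libraries than in both WT libraries. The same counts were not made over all genes, so they are not shown to be particular to the members.

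In number of called members the genotypes differed by -17 (43.5 ± 0.707 for WT against 26.5 ± 17.7 for KO, SD over 2 libraries; exact two-sided permutation p = 0.333). PCDHB10, PCDHGA1, PCDHGA2, PCDHGB1, PCDHGB3 and PCDHGA6 were called in both WT libraries and neither KO library (11.3%, against 0.506% of all genes), which is 6 of the 43 called in both WT libraries (14%, against 8.79%). At PCDHB10 the fold was 6.53 in WT 1 and 16.8 in WT 2, and at PCDHGA2 10.6 and 13.4. No member was called in KO only, against 1.23%. Without KO 1 the difference was -4.5, and without KO 2 it was -29.5. The count of 6 rests on KO 2, since without that library 29 members were called in WT only. KO 1 had the shortest p53 list, with 24972 peaks, and KO 2 the longest, with 62248. With lists of equal length the WT-only count rose from 6 to 16 members. The part of list length in these counts was not tested further.

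The p53 peaks of the members were not the strongest of the genome. Each p53 list was ranked by −log10 q-value, with ties ordered by fold. Of the first 1000 peaks, 3 lay in members' downstream windows in WT 1, 1 in WT 2 and 0 in each KO library. The median member fold in WT was nonetheless above that of CDKN1A, the classical p53 target gene, whose strongest p53 peak within 5 kb had a fold of 7.72 in WT 1, 10.3 in WT 2, 5.94 in KO 1 and 11.4 in KO 2. At CDKN1A the genotypes overlapped. CDKN1A was chosen for this comparison after the members' values were seen.

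The downstream window carried H3K27ac and MLL4 in WT too, at low fold. For H3K27ac the share called in both WT libraries was near that of all genes. H3K27ac was called there at 20 members in WT 1 (4 alpha, 7 beta and 9 gamma), 42 in WT 2 (12, 9 and 21) and 0 in either KO library. The median fold was 3.91 and 3.87, below the list medians of 4.77 and 4.62, and the difference of -31 members gave an exact two-sided permutation p of 0.333. It was -20 without WT 2, -8.5 with a −log10 q-value of at least 5, and -3 with lists of equal length. In both WT libraries 19 members were called (35.8%, against 31.9% of all genes), and all 19 were without a KO peak (35.8% WT-only, against 8.43% of all genes, and 19 of 19, against 26.4% of genes called in WT). Over all genes 19.2% were called in both KO libraries. With lists of equal length 2 WT-only members were left, PCDHAC2 and PCDHGC5. At PCDHAC2 this is the broad promoter peak, 2056 and 2203 bp wide in WT, reaching into the window.

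MLL4 was called in the window at 13 members in WT (24.5%, against 7.37% of all genes), 6 of them alpha, 4 beta and 3 gamma genes, with a median fold of 4.17. The highest was PCDHB9 with 5.84. It was also the only one with a −log10 q-value of at least 5 (5.23), and the others had 1.70 to 3.92. MLL4 had 1 WT library, and no alternative setting was run for it in this window. H3K4me3 and H3K4me1 had no peak in the window of any member in any library, where 42.9% and 64.6% of all genes had one in at least 1 library. MLL1 was called at 1 member in WT (1.89%, against 11.7% of all genes) and 2 in KO (3.77%, against 16.6%). The window thus held p53 and MLL4 peaks without the 2 H3K4 methylation marks. It also held H3K27ac, called in both WT libraries at a share near that of all genes.

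Beyond promoters and downstream windows, the locus was divided into stretches by the members' positions. The alpha cluster's shared 3′ part, from 2.5 kb after the PCDHAC2 start to the common gene end, holds the constant exons. There an H3K4me3 region at chr5:141001237-141002457 was called in all 4 libraries, with a fold of 20.9 and 27.2 in WT and 11.5 and 17.7 in KO. Both KO values were below both WT values, but the peak stayed where those of PCDHAC1 and PCDHAC2 did not. H3K27ac in this stretch reached a fold of 6.90 and 9.67 in WT and was not called in KO. H3K4me1 reached 5.33 in WT and 3.20 in KO. Between the alpha and beta clusters, at chr5:141040094-141041157, 10749 bp before the PCDHB1 start, H3K4me3 was called with 5.63, 14.8 and 6.16 in WT 1, WT 2 and KO 1, and not in KO 2. H3K4me1 overlapped this site in WT with a fold of 5.62.

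H3K27ac covered much less of the gamma cluster in KO. The whole H3K27ac lists were also shorter in KO, with 65050 and 61959 peaks against 139104 and 198757 in WT. So was the single H3K4me1 list, with 43636 peaks against 125507. Coverage over the whole genome was not computed. In the stretch of the gamma starts its peaks covered 6.90 and 25.3 kb in WT and 0.287 and 0.351 kb in KO, the latter being the PCDHGA10 peak alone. In the gamma constant part they covered 7.62 and 8.92 kb in WT against 1.12 and 0.839 kb in KO. Downstream of the cluster, in and around DIAPH1, coverage was 7.78 and 8.97 kb against 1.78 and 1.90 kb, and H3K4me1 covered 17.0 kb in WT and 0.721 kb in KO. The widest H3K4me1 peak of this stretch, at chr5:141517599-141526400, was 8802 bp wide with a fold of 6.39 in WT and was not called in KO.

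**Figure D4:**
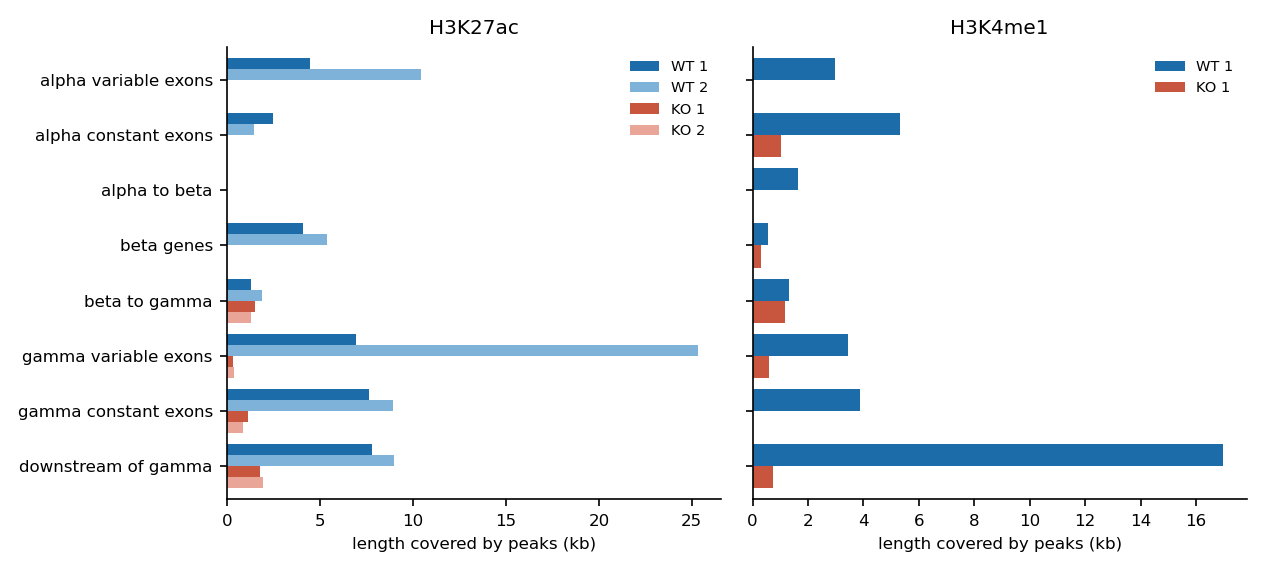
Length covered by H3K27ac peaks (left, 4 libraries) and H3K4me1 peaks (right, 1 library per genotype) in 8 stretches of the locus, in kb on axes starting at 0, with blue bars for WT and red for KO; "variable" stretches run from 1 kb before the first start to 2.5 kb after the last start of a cluster, and "constant" stretches from there to the shared gene end. KO bars are shorter than WT bars in every stretch that has peaks, except for H3K27ac from beta to gamma, where TAF7 lies.

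Over the whole span, H3K27ac regions called in both WT libraries were absent from both KO libraries in 33 of 45 cases (73.3%), against 55.2% in the genome. For H3K4me3 this was 2 of 9 (22.2%, against 5.35%), for p53 13 of 60 (21.7%, against 12.7%) and for MLL1 9 of 12 (75%, against 55.4%). For H3K4me1 the share was 23 of 30 (76.7%), near the genome's 77.7%. The regions share 1 locus and are not replicates.

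The 3 neighbouring genes with a start entry in the span kept both marks. TAF7, a single-exon gene between the beta and gamma clusters, had an H3K4me3 fold of 76.0 and 126 in WT and 125 and 89.1 in KO. Its H3K27ac fold was 48.4 and 50.4 in WT and 36.6 and 44.3 in KO. ZMAT2 and DIAPH1, at the ends of the span, were likewise called for both marks in every library. SLC25A2 had no H3K4me3 peak, and an H3K27ac peak in WT 2 only, with a fold of 3.87. Of the 20 regulators of the locus with a start entry, out of 23 listed (CTCF, cohesin and its loaders, SMCHD1, DNA methyltransferases, SETDB1 and others), 19 had H3K4me3 in both WT libraries and 19 in both KO libraries, and none was called in 1 genotype only. Of 15 other cadherin-superfamily genes with an entry, out of 25 listed, H3K4me3 was called at CELSR2, CELSR3 and FAT1 in both genotypes, and H3K27ac was called in WT only at CDH2.

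Peak lists held 18388 to 20922 H3K4me3 peaks, and read depth is unknown because the files give no counts. A missing call therefore means that enrichment did not pass the authors' threshold in that library. As a check of the labelled cell type, 6 of 9 colon epithelium genes had H3K4me3 within 1 kb of the gene in every library of both genotypes. These were EPCAM, CDH1, KRT8, KRT18, KRT19 and CDX2, and VIL1, CDX1 and LGALS4 lacked it in every library. Of the neuron list 7 of 9 genes had a peak (GAD1, MAP2, SYT1, TUBB3, RBFOX3, SLC17A7 and SNAP25). Of the fibroblast list it was 2 of 7, and of the blood list 2 of 7 in WT and 3 of 7 in KO. The check thus did not set the colon list apart from the neuron list. The short MLL4 list of the KO line is the only check of the knockout in these files.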

How the data were processed

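The data were 18 peak lists, 1 per ChIP library, and the 2 inputs were not analysed here. Peaks were called with MACS2 2.1.1 on hg38, per the submitters' processing notes. The authors' lists give for each peak a fold enrichment, which is a ratio of ChIP to local background, and a −log10 q-value. Peak names in the deposited lists show 1 call per library, without pooling, and 1 shared input per genotype. The aligner is not given in the sources used here, nor is the handling of reads that map to several similar copies. Read depth is not in the lists, so no interval could be computed.

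Members, windows and lists were chosen with earlier results of these data known. Start sites and sequences came from RefSeq GRCh38.p14. Of 19970 protein-coding genes on chromosomes 1 to 22 and X, 4153 had no promoter entry and were left out as background, while 6 such members were kept with the lower gene coordinate as start, as their cluster lies on the plus strand. A member was called where a peak overlapped start ± 1 kb by at least 1 bp, and its strongest peak gave fold, width and q-value. WT-only means called in every WT library and no KO library, and KO-only the reverse. Counts of called members were compared over libraries by an exact two-sided permutation test. Values in every library are given for the C-type genes, for the 4 members of highest mean H3K4me3 fold per cluster where any peak was called, and for up to 6 WT-only or KO-only members per target. Python 3.11.15 with pandas 2.3.3, numpy 2.4.6 and scipy 1.17.1 was used, and the overlap code was tested on simulated peaks. Alternatives were peaks with −log10 q-value of at least 5, lists of equal length, a window of 500 bp, an overlap of 200 bp, each library left out, and replicate pairs. The downstream window and its alternatives, and the crossed pairs, were added after the data were seen. The search for CGCT by strand within 100 bases before the start was not planned either.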

Additional observations from a re-analysis of the deposited data

How the results depend on the processing

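Of 152 recomputed values, 21 were counts of WT-only or KO-only members that moved by more than 1.5 times. The differences in called members for H3K27ac and p53 kept their sign but not their size. Over all settings they ranged from -15 to -3 for H3K27ac and from -10.5 to -1.5 for p53 promoters, and from -42 to -3 for H3K27ac and from -29.5 to -4.5 for p53 downstream windows. For H3K27ac the value was -3 at both sites with lists of equal length, and -5.5 at promoters and -8.5 downstream with a −log10 q-value of at least 5. The H3K4me3 difference ranged from -1 to 1. H3K4me3 was WT-only at 2 members, PCDHAC1 and PCDHAC2, and PCDHB14 was KO-only, under every alternative run. Without KO replicate 1 the H3K4me3 KO-only count was 3 (PCDHGA6 and PCDHGB7 added). With one library left out in turn, WT-only counts lay between 6 and 15 for H3K27ac promoters (15 without WT replicate 1), 6 and 29 for p53 downstream windows (29 without KO replicate 2), and 19 and 42 for H3K27ac downstream windows (42 without WT replicate 1). KO-only counts lay between 1 and 3 for H3K4me3, 0 and 3 for p53 promoters, and 0 and 2 for p53 downstream windows, the highest each without KO replicate 1. With a −log10 q-value of at least 5, WT-only counts were 4 for H3K4me1, 1 for MLL1, 1 for MLL4 and 3 for p53 promoters, and 18 for p53 and 4 for H3K27ac downstream windows. With lists of equal length they were 1 for H3K27ac, 2 for H3K4me1, 1 for MLL1, 0 for MLL4 and 2 for p53 promoters, and 16 for p53 and 2 for H3K27ac downstream windows, and H3K4me1 was KO-only at 1 member. With an overlap of 200 bp p53 was WT-only at 2 promoters. Fewer peaks enter with the stricter settings; the cause of the other moves was not tested.

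The replicate block gave a mean difference of 0 members for H3K4me3 promoters (pairs -1 and 1; exact sign-flip p = 1), -10.5 for H3K27ac (-6 and -15; exact p = 0.5), -6 for p53 (-12 and 0; exact p = 1), and -17 for p53 (-30 and -4) and -31 for H3K27ac (-20 and -42) downstream windows. With 2 pairs the smallest p is 0.5. Deviations of same-numbered libraries over promoters correlated at -0.232 for H3K4me3, -0.124 for H3K27ac and 0.0157 for p53. The labels do not say that a number marks a shared culture or day. Crossed pairs, run for H3K4me3 and H3K27ac, have the same mean difference by construction and give no information on pairing.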

Other observations

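The p53 peaks were not limited to protein-coding genes of the locus. Of 6 protocadherin pseudogenes annotated there (PCDHA14, PCDHB17P, PCDHB18P, PCDHB19P, PCDHGB8P and PCDHGB9P), all 6 held a p53 peak in WT 1 and in WT 2, 0 in KO 1 and 5 in KO 2. The fold was 12.7 in WT 1, 21.5 in WT 2 and 5.08 in KO 2 at PCDHB18P, with no peak in KO 1. At PCDHB17P it was 12.1, 22.5 and 4.44 in the same order, and at PCDHB19P 7.55, 21.8 and 8.89. PCDHGB8P, with 9.82 and 11.98 in WT, was the pseudogene without a peak in KO 2. H3K27ac was called at 2 pseudogenes in WT 1, 5 in WT 2 and 0 in either KO library, and H3K4me3, H3K4me1 and MLL4 at none. MLL1 was called at 1 in WT.

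Upstream of PCDHA1, at chr5:140719066-140719529, H3K4me3 was called in both KO libraries, with a fold of 6.41 and 4.11, and in neither WT library. It overlaps H3K27ac peaks that were called in all 4 libraries, with 12.4 and 15.3 in WT and 7.24 and 9.80 in KO. This site was picked after its values were seen.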
